A study of Mus musculus with 6 samples.

Results

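The cycling nuclei of the mouse lumbar dorsal root ganglion at postnatal day 14 (P14) numbered 114. They were chosen among the ganglion nuclei with at least 500 UMIs (unique molecular identifiers, 1 per captured RNA molecule), at least 300 genes and a mitochondrial share of at most 5%. A member had UMIs of at least 2 of the 4 cell cycle genes Mki67, Top2a, Cenpf and Knl1, and of at most 1 of the 4 neuronal genes Snap25, Syt1, Rbfox3 and Elavl3. They were 114 of 4610 nuclei with at most 1 neuronal gene (2.47%, exact 95% interval 2.04 to 2.96), of 5786 ganglion nuclei past the filter, and of 57597 barcodes in the whole series. The series holds 6 droplet libraries from C57BL/6 mice: 5 of sciatic nerve cells at P0, P7, P14, P28 and P60, and 1 of ganglion nuclei, pooled from 4 males and 4 females at P14. The labels name no other genotype or treatment, and they give the ganglion library the cell type neuron and its molecule as nuclear RNA, under a title that says single cells, while 806 of its nuclei carried 3 or 4 of the neuronal genes. Because the ganglion gave 1 library from 1 pool of animals, no difference below has a replicate check, and no test was possible. All intervals are 95% intervals for counting error only.

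A dividing cell copies its chromosomes in S phase and separates them in mitosis. Genes for replication are switched on at the entry to S phase through E2F transcription factors. Many genes for the spindle and kinetochore are switched on later, through the MuvB complex with B-MYB and FOXM1. These bind near CCAAT boxes and cell cycle homology regions (CHR elements). Around birth and in the first postnatal weeks the glia of a sensory ganglion still divide: satellite glia, which wrap each neuronal cell body, and Schwann cells, which cover the axons. The neurons themselves have left the cell cycle by then.

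The upstream sequences of 5 genes are shown because they carry the motifs on which this order of expression is known to depend. Each is the 240 bases before the RefSeq start site of GRCm38.p6, 5′ to 3′ on the gene's strand, matched by symbol. Pola1 (chrX:93632156-93632395, minus strand) encodes the catalytic subunit of DNA polymerase alpha, Top2a (chr11:99024190-99024429, minus strand) encodes DNA topoisomerase II alpha, and Mki67 (chr7:135716380-135716619, minus strand) encodes the chromosome surface protein Ki-67. Cdk1 (chr10:69352913-69353152, minus strand) is the mitotic cyclin-dependent kinase, and Kif11 (chr19:37376142-37376381, plus strand) is the kinesin that pushes spindle poles apart. Capitals mark every match, on either strand, to the box CCAAT, to the CHR form TTTGAA or the other CHR form, which is TTCGAA, and to any of 4 E2F forms. The first E2F form searched was TTCCCGC, the second form searched was TTGGCGC, the third form searched was TTCGCGC, and the last form searched was TTGCCGC. On the opposite strand the box reads ATTGG, which can overlap the form TTGGCGC.
Pola1: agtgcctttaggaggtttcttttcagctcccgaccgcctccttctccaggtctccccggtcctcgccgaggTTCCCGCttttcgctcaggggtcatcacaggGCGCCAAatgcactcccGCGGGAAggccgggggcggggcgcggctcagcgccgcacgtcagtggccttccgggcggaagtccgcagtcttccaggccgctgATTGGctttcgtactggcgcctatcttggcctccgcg
Top2a: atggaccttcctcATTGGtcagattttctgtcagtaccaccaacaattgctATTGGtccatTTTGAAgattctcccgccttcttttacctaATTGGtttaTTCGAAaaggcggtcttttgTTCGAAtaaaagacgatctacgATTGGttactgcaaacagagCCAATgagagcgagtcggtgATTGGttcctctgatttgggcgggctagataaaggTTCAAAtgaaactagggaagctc
Mki67: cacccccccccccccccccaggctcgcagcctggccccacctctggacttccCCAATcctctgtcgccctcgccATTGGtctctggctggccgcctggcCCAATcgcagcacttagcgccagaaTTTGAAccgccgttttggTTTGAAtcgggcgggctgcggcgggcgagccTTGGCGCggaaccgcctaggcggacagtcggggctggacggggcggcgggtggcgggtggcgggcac
Cdk1: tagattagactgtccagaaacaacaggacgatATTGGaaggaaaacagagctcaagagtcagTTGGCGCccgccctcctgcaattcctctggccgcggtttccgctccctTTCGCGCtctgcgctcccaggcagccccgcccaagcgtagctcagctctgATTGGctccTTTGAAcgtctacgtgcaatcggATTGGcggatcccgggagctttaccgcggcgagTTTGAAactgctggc
Kif11: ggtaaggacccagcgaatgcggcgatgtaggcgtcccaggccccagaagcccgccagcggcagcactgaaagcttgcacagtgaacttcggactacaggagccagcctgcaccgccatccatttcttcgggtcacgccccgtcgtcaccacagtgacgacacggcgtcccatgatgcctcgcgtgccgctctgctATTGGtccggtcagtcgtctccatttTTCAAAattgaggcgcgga

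In these windows Pola1 held 3 E2F matches, 1 CCAAT match and 0 CHR matches. Top2a held 6 CCAAT and 4 CHR matches and 0 E2F matches, and Kif11 held 1 CCAAT and 1 CHR match. Mki67 and Cdk1 held all 3 kinds. Over 300 bases (250 before and 50 after the start), E2F forms were in 19 of 26 genes of the replication list with a promoter in the table (73.1%) and in 4 of 24 genes of the spindle and cytokinesis list (16.7%), against 10.9% of all 27025 genes of the table. CHR forms were in 5 of 26 replication genes (19.2%) and in 20 of 24 spindle genes (83.3%), against 21.7% of all genes. CCAAT was in 61.5% of the replication genes, 62.5% of the spindle genes and 41.1% of all genes. A match describes letters in a window and was not tested as a binding site.

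Of the genes that chose the members, Top2a had UMIs in 100 of the 114 nuclei, with a median of 3 and a maximum of 18 UMIs. Mki67 was detected in 83, Cenpf (a kinetochore and nuclear matrix protein) in 78 and Knl1 (the scaffold of the outer kinetochore) in 77. All 4 genes were found in 38 nuclei, 3 in 34 and 2 in 42. The most frequent incomplete pattern was Mki67, Top2a and Knl1 without Cenpf, in 16 nuclei, followed by Top2a with Cenpf alone, in 13. In the nuclei with 3 or 4 neuronal genes, which should lack these transcripts, Mki67 had UMIs in 6.95%, Top2a in 1.99%, Cenpf in 1.36% and Knl1 in 2.73%, at a median depth of 10555.5 UMIs against 2356.5 in the members. No neuronal gene was detected in 86 members and 1 in 28, with Syt1, the synaptic vesicle calcium sensor, in 16. Just outside the rule lay 164 nuclei with 1 of the 4 cycle genes, and 6 nuclei with at least 2 cycle genes and 2 neuronal genes. A further 8 of the 806 nuclei with 3 or 4 neuronal genes (0.993%) had at least 2 cycle genes.

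The label was checked against 132 other cell cycle genes in 6 lists (replication, repair and checkpoint, chromosome structure, kinetochore, spindle, and mitotic kinases and cyclins), none of which the rule had read. Their summed level was higher the more rule genes were detected: 1111 CPM (the usual depth-scaled unit, over all UMIs of the class) with 0 genes, 3097 with 1, 12876 with 2, 21240 with 3 and 24294 with 4. The nuclei with 3 or 4 neuronal genes stood at 792 CPM. A single member held a median of 43.5 UMIs of these genes, from 0 to 247, and only 1 member had none. The 6 nuclei with 2 neuronal genes reached 19872 CPM, between the members with 2 and those with 3 rule genes, whereas the 8 with 3 or 4 neuronal genes reached 2282 CPM. With each nucleus thinned to 1000 UMIs, at least 3 of these genes were found in 92 of 99 members (92.9%, unthinned 95.6%), with 15 shallower members left out. In non-cycling nuclei with at most 1 neuronal gene the thinned share was 8.67% (unthinned 28.4%, 928 left out), and in nuclei with 3 or 4 neuronal genes 4.397% (unthinned 83.5%, 10 left out).

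**Figure D1:**
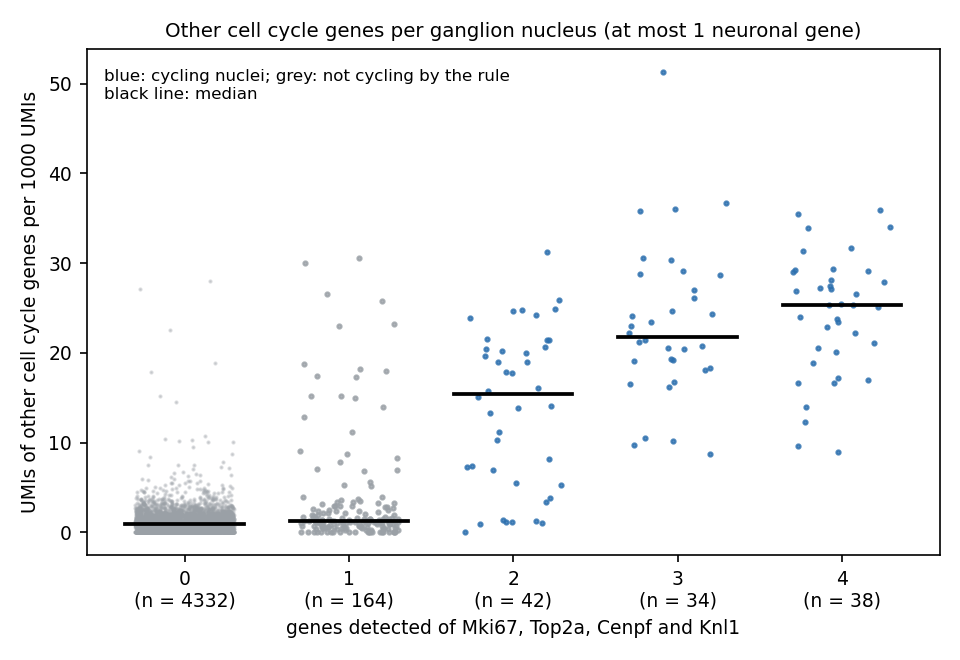
UMIs of the 132 other cell cycle genes per 1000 UMIs (y axis) in each ganglion nucleus with at most 1 neuronal gene, by the number of the 4 rule genes detected (x axis). Points are nuclei, black lines are medians, blue marks the 114 members. Most of the 4332 nuclei with 0 rule genes lie near 0, while the members with 3 or 4 rule genes lie well above, and those with 2 are spread between.

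The rule also left out nuclei with many other cell cycle genes. At least 10 of the 132 genes were found in 22 of the 164 nuclei with 1 rule gene and in 24 of the 4332 with 0, a threshold chosen after the data were seen. In those 22 nuclei the replication list stood at 4612 CPM and the 3 mitotic lists (kinetochore, spindle, and mitotic kinases and cyclins, 72 genes) at 4684 CPM. In the members the same lists stood at 2335 and 13160 CPM, 5.64 mitotic UMIs for each replication UMI.

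Among the members themselves, replication UMIs exceeded mitotic UMIs in 6 of 114 nuclei. Members with 2 rule genes had 2.88 mitotic UMIs per replication UMI, those with 3 had 3.63, and those with 4 had 9.51. The mitotic lists stood at 6804, 12008 and 16765 CPM in these groups, whereas the replication level was 2360, 3310 and 1763 CPM. Cenpf and Knl1, which helped to choose the members, belong to the kinetochore. How far this order depends on the choice of members was not tested. At least 1 replication UMI was found in 90 members, and at least 1 mitotic UMI in 112. The 30 members with Top2a but without Mki67 had 2653 CPM of replication genes, and the 13 with Mki67 but without Top2a had 801.

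**Figure D2:**
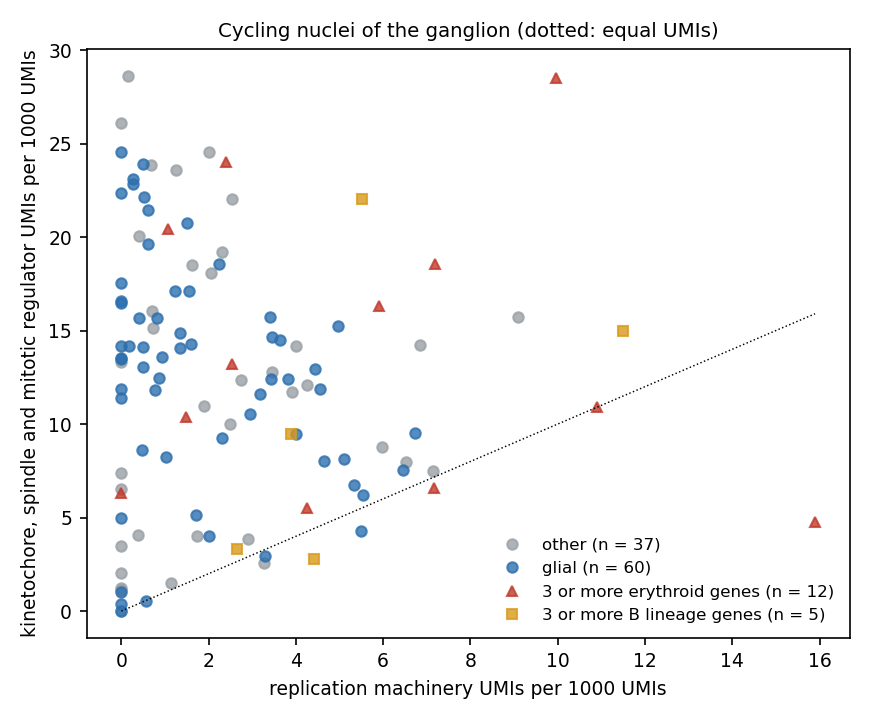
UMIs of the replication list (x axis) against UMIs of the 3 mitotic lists (y axis), each per 1000 UMIs, in the 114 cycling nuclei. Points are nuclei, colored by lineage or, for 17 nuclei, by blood cell genes (1 with both kinds is drawn as erythroid), and the dotted line marks equal values. Only 6 nuclei lie below the line, and a column of nuclei at 0 replication UMIs reaches high on the y axis.

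By lineage markers, 65 of the 114 members were glial, with Fabp7 (the fatty acid binding protein of immature and satellite glia) or Sox10 (the transcription factor of peripheral glia) and neither Pdgfra nor Cdh5. That is 57.0% (47.4 to 66.3), beside 60.04% of the non-cycling nuclei. Both genes were found in 29 of them, Fabp7 alone in 25 and Sox10 alone in 11. Of the other members, 3 were mesenchymal by Pdgfra, 1 endothelial by Cdh5, 6 carried markers of more than 1 lineage, and 39 carried none. Fabp7 also had UMIs in 34.1% of the nuclei with 3 or 4 neuronal genes and Sox10 in 8.56%, at a median depth of 10555.5 UMIs, so a UMI of Fabp7 marks the lineage less sharply than one of Sox10. With both genes required, 25.4% of the members were glial, and with the marker lists 42.1%. At least 3 of 6 pan-glial markers were found in 30 of the 65 glial members (46.2%), 49.4% of the non-cycling glial nuclei and 5.33% of the nuclei with 3 or 4 neuronal genes. Besides Cdh5, which the rule required to be absent, 4 endothelial markers (Flt1, Kdr, Emcn and Tek) were at 0 in the glial members.

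The share of cycling nuclei was 2.35% (1.81 to 2.98) in the glial lineage, 65 of 2771 nuclei. By at least 3 markers of a list it was 29 of 981 for the satellite glia list (2.96%, 1.99 to 4.22). It was 25 of 1176 for the non-myelinating Schwann list (2.13%, 1.38 to 3.12) and 12 of 788 for the myelinating Schwann list (1.52%, 0.789 to 2.64). It was 19 of 737 for the mesenchymal list (2.58%, 1.56 to 4.00) and 5 of 153 for the endothelial list (3.27%, 1.07 to 7.46). These intervals overlap. Among 96 nuclei with at least 3 macrophage markers there was 0 cycling nucleus, which allows a share of up to 3.77%. A nucleus can count under several lists, and at this threshold some lists do not single out their cell type. In nuclei with 3 or 4 neuronal genes, at a median depth of 10555.5 UMIs, 74.2% had at least 3 non-myelinating Schwann markers. For the myelinating Schwann list this was 24.6%, and for the satellite glia list 9.68%.

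Nuclei with red cell genes had the highest share of the lists read. At least 3 of 13 erythroid genes other than globins were found in 22 nuclei, and 12 of these were cycling (54.5%, 32.2 to 75.6), 4 had 1 rule gene and 6 had 0. By at least 3 of the 4 globins, 9 of 47 nuclei were cycling (19.1%, 9.15 to 33.3). Both lists and their threshold were chosen after the data were seen. In the 12, Sptb (erythroid spectrin) was detected in 12, Kel (the Kell blood group protein) in 11, Ank1 (erythroid ankyrin) in 10, and Rhag (a membrane protein of the Rh complex) in 8, whereas Hemgn was detected in 4, Epb42 in 3, Gata1 in 2 and Klf1 in 1. Sptb and Ank1 also had UMIs in 138 and 183 of the 4268 non-cycling nuclei with fewer than 3 erythroid and B lineage genes, and Kel in 0. Hbb-bs, an adult beta globin, had UMIs in 639 of the 4268. In the 12 it had UMIs in 11 nuclei, from 0 to 100 with a median of 5.5. The 4 globins together stood at 22177 CPM (20231 to 24259) in these 12 nuclei, at 95662 CPM (88534 to 103212) in the 6 non-cycling ones and at 109 CPM (74.0 to 155) in the 97 members with fewer than 3 erythroid and B lineage genes. The non-cycling nuclei thus had the higher globin level, on 6 nuclei. Of the nuclei with 3 or 4 neuronal genes, 8.44% also had at least 3 of the 13. The labels' protocol, written for both tissues together, includes a lysis of red blood cells.

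Nuclei with B lymphocyte genes were a second group. At least 3 of 8 B lineage genes, a list also chosen after the data were seen, were found in 69 nuclei, of which 6 were cycling (8.70%, 3.26 to 18.0), 5 had 1 rule gene and 58 had 0. In the 6, Blnk, an adaptor of B cell receptor signalling, was detected in 6, and Pax5, Ighm and Ikzf3 in 5 each. Ebf1, the early B cell factor, had 16 to 47 UMIs in every one of the 6, with a median of 21. All 6 had Top2a, from 2 to 8 UMIs, and only 1 had Cenpf. Replication genes were high in both blood groups: 4835 CPM in the 12 erythroid and 4672 CPM in the 6 B lineage members, beside 1746 CPM in the glial members. Of the 39 members without a lineage marker, 9 had at least 3 erythroid genes, 3 had at least 3 B lineage genes and 4 had at least 3 endothelial markers. The remaining 23 included 4 with at least 3 mesenchymal markers.

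**Figure D3:**
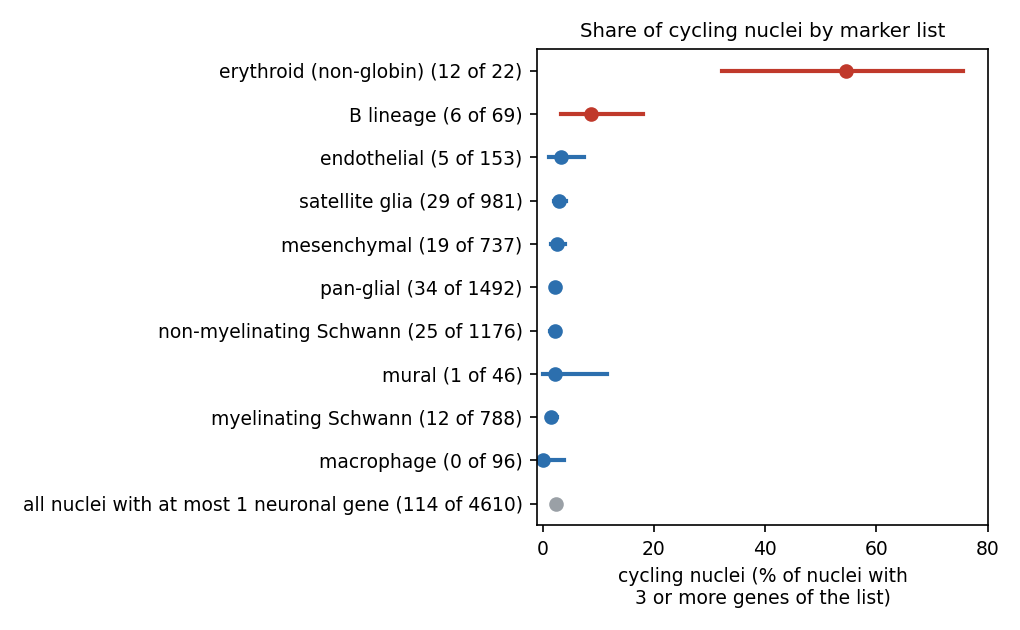
Share of cycling nuclei (x axis, %) among nuclei with at least 3 genes of each marker list (y axis, cycling of all nuclei in parentheses), with exact 95% intervals. Red marks the erythroid and B lineage lists, blue the other lists drawn and grey all nuclei with at most 1 neuronal gene. The red lists were added after the data were seen, as was the globin list, which is not drawn. The erythroid list stands at 54.5%, while satellite glia, Schwann, mesenchymal and endothelial lists lie between 1.52% and 3.27%.

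The glial lineage was the only named one with at least 20 cycling nuclei, and its 65 members were compared with the 2601 glial nuclei without any of the 4 rule genes. Their median depths were 2368 and 1960 UMIs, and their sums 188449 and 5778147 UMIs. A gene was measured when the mean of the classes reached 5 UMIs at the depth of the cycling class, which 6657 genes did. Of these, 783 (11.8%) were at least 2-fold higher and 393 (5.9%) at least 2-fold lower in the cycling glial nuclei. The median ratio was 1.05. The non-cycling class alone would have measured 5940 of the genes, and 290 of those were at least 2-fold higher. Since the members were chosen by cell cycle genes and genes of the cycle move together, these calls are a description. Leaving out the nuclei with at least 3 erythroid or B lineage genes (5 cycling and 16 non-cycling glial nuclei) gave 11.5% of 6242 genes higher and 6.95% lower.

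The cell cycle lists were higher as a whole. Their 132 genes summed to 19544 CPM in cycling and 1069 CPM in non-cycling glial nuclei, an 18.3-fold difference (17.6 to 19.1). Of 100 measured genes 99 were at least 2-fold higher and 0 lower, but only 9 would have been measured on the non-cycling class alone. Of those 9, 8 were at least 2-fold higher. The other was Atr, the kinase that senses stalled replication forks, at 1.63-fold (0.971 to 2.59). Without the blood cell nuclei, 97 of 98 measured genes were higher.

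The lists differed in size of change. Spindle and cytokinesis genes summed to 7249 against 187 CPM, 38.8-fold (35.8 to 42.1), mitotic kinases, cyclins and regulators to 34.5-fold (30.3 to 39.2), and kinetochore and centromere genes to 31.3-fold (27.9 to 35.2). Chromosome structure genes were 12.8-fold higher (11.6 to 14.1), repair and checkpoint genes 9.13-fold (8.04 to 10.3) and replication genes 6.29-fold (5.57 to 7.09). The intervals of the 3 mitotic lists did not overlap those of the other 3, but they cover counting error only. The rule chose members by genes that include the kinetochore genes Cenpf and Knl1, and the non-cycling class lacks all rule genes. That class kept 20 nuclei with at least 10 other cell cycle genes, at 2253 CPM of replication and 2074 CPM of mitotic genes. How far the order of the lists depends on the rule was not tested.

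**Figure D4:**
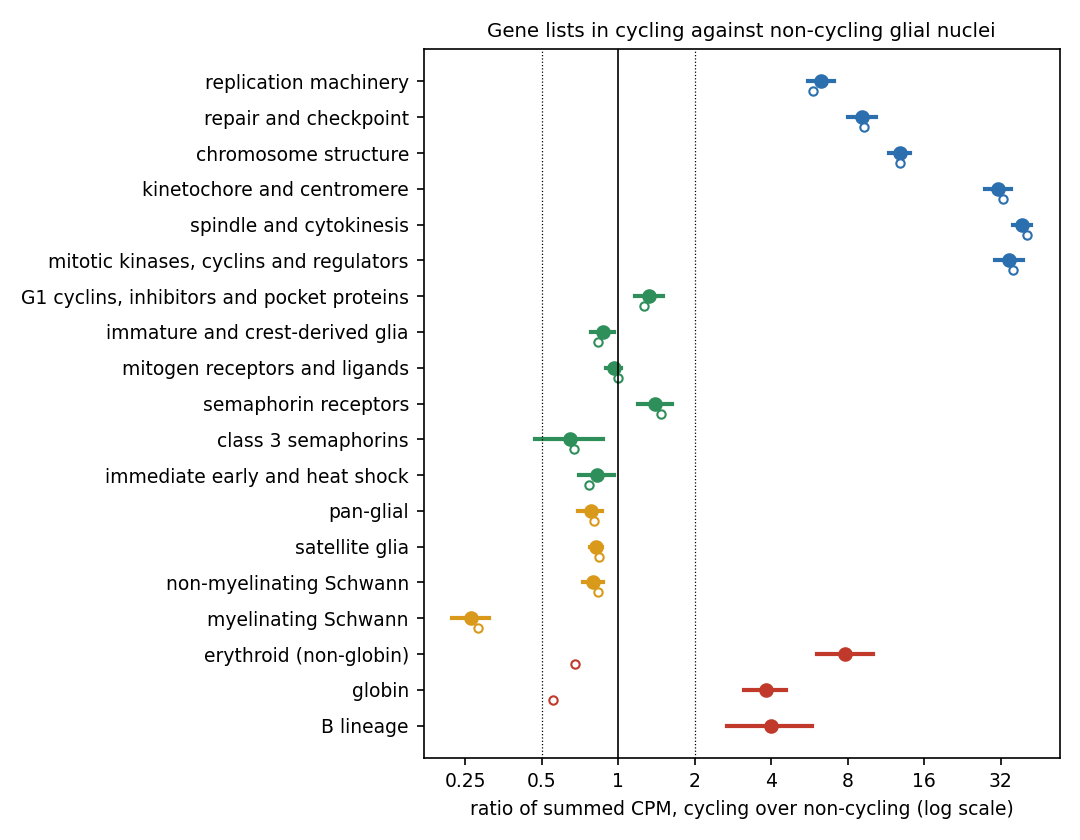
Ratio of summed CPM in cycling over non-cycling glial nuclei (x axis, log scale) for each gene list (y axis), with exact 95% counting intervals. Open circles give the ratio without nuclei with at least 3 erythroid or B lineage genes, where B lineage UMIs fell to 0 in cycling nuclei and have no circle. Blue marks cell cycle lists, green other function lists, gold glial markers and red the added blood lists, whose ratios move to below 1 without those nuclei. For the erythroid and B lineage lists this was set in advance, since their own genes chose the nuclei left out.

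Among replication genes, Atad2, a chromatin ATPase induced by E2F, had 345 CPM in cycling and 24.4 CPM in non-cycling glial nuclei, 14.1-fold (10.4 to 19.1). Pola1 stood at 287 against 51.4 CPM, 5.57-fold (4.09 to 7.47). Clspn, a fork protection factor, was 28.1-fold higher (11.2 to 69.6), and the nucleotide synthesis genes Tk1, Tyms and Rrm1 were 14.9-, 13.8- and 10.7-fold higher. The helicase subunits Mcm2 to Mcm7, loaded onto origins before S phase, had 20 UMIs in all in the cycling glial nuclei, and none of the 6 was measured. Together they were 2.63-fold higher (1.58 to 4.16), a grouping made after the values were seen. Pcna, the sliding clamp, had 5 UMIs, and Cdc6 and Cdt1, the licensing factors, had 0.

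Among repair genes, Rad51b had 478 against 41.7 CPM, 11.5-fold (8.89 to 14.6), Brip1, the BRCA1 partner helicase, was 79.2-fold higher (39.6 to 169) and Brca1 25.0-fold (15.0 to 41.3). Rad51ap1 had 14 UMIs against 1, a ratio of 429 with an interval of 65.3 to 18151.

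In chromosome structure, Ezh2, the histone H3K27 methyltransferase, stood at 727 against 102 CPM, 7.096-fold (5.85 to 8.56). The condensin genes Smc2, Smc4, Ncapd2 and Ncapg were 22.3-, 10.5-, 23.9- and 105-fold higher. Esco2, the acetyltransferase that ties sister chromatids together, had 20 UMIs in 16 cycling nuclei and 0 in the 2601 non-cycling nuclei, 204-fold higher against a floor of 3 counts for the class and at least 151-fold by the exact interval.

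Kinetochore genes included Cenpp at 706 against 46.2 CPM, 15.3-fold (12.3 to 18.9), Cenpa, the centromeric histone, at 46.4-fold (30.4 to 71.4), and Cenpe, a kinetochore motor, at 76.7-fold (46.0 to 132). Bub1, a spindle checkpoint kinase, had 16 UMIs in 15 cycling nuclei and 0 in non-cycling nuclei, at least 118-fold higher by the exact interval. The shugoshins Sgo1 and Sgo2a, which guard centromeric cohesion, were 164- and 145-fold higher.

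All 27 genes of the spindle and cytokinesis list were measured, but only 2 of them would have been on the non-cycling class alone, and those 2 were at least 2-fold higher. Diaph3, a formin, had 149 UMIs in 42 of 65 cycling glial nuclei, 791 against 74.6 CPM, 10.6-fold (8.74 to 12.8). Prc1, which bundles the central spindle, was found in 47 nuclei, 45.4-fold higher (33.6 to 61.7), and Ckap2 in 28 nuclei, 303-fold (146 to 726). Kif11 was 245-fold higher (117 to 592). Depdc1b had 47 UMIs in 30 nuclei and 0 in non-cycling nuclei, at least 376-fold higher by the exact interval.

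Among mitotic kinases and cyclins, Cdca2, the anchor of protein phosphatase 1 on mitotic chromosomes, had 55 UMIs in 27 nuclei against 1 UMI, a ratio of 1686 with an interval of 290 to 67804. Ttk and Cdc25c had 34 and 33 UMIs against 2 each, ratios of 521 (134 to 4478) and 506 (129 to 4352). Pbk had 17 against 0, at least 127-fold higher by the exact interval. The cyclins Ccna2, Ccnb1 and Ccnb2 were 56.9-, 28.7- and 44.3-fold higher, Cdk1 33.0-fold (14.4 to 76.3) and Foxm1 66.4-fold (23.6 to 213).

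**Figure D5:**
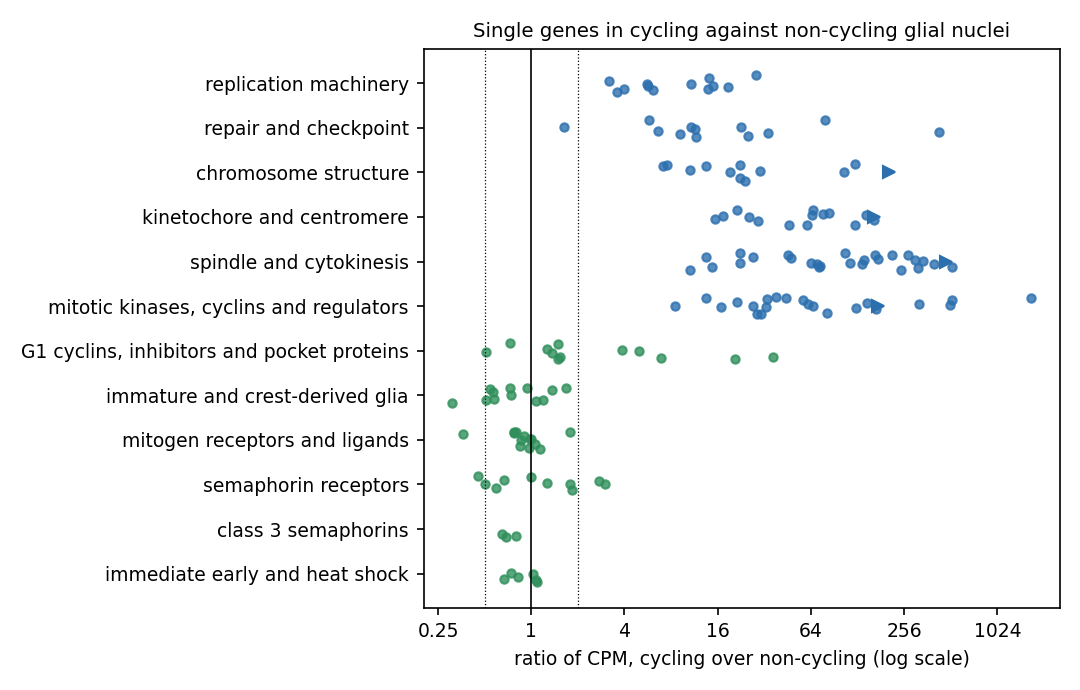
Ratio of CPM in cycling over non-cycling glial nuclei (x axis, log scale) for each measured gene of the function lists (y axis). Points are genes, triangles mark the ratio against a floor of 3 counts for genes with 0 UMIs in non-cycling nuclei, the solid line marks 1 and dotted lines 0.5 and 2. The blue cell cycle genes lie above 2 except Atr. The green lists straddle 1 except the class 3 semaphorins, whose 3 measured genes lie below 1.

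The genes that govern entry into the cycle split. Of 12 measured genes of G1 cyclins, inhibitors and pocket proteins, 5 were at least 2-fold higher and 0 lower, beside 11.8% and 5.9% of all genes, but all 5 were measured only through the cycling class, and of the 6 that the non-cycling class alone would have measured 0 were higher. The whole list of 21 had a ratio of 1.32 (1.17 to 1.499). E2f2 was 36.2-fold higher (15.0 to 89.3) on 13 UMIs, and 19.96-fold without the blood cell nuclei. Cdkn2c, the CDK4 and CDK6 inhibitor p18, stood at 122 against 5.88 CPM, 20.7-fold (11.7 to 36.3), in 19 nuclei. Rbl1, the pocket protein p107, was 6.86-fold higher (3.64 to 12.1), Ccne2 4.96-fold (2.79 to 8.33) and Cdkn2d 3.87-fold (1.93 to 7.09). Cdk6 had a ratio of 0.726 (0.554 to 0.935), and Cdkn1b, the inhibitor p27, one of 0.508 (0.164 to 1.20) on 5 UMIs. Ccnd1 and Ccnd2 had 2 and 3 UMIs and were not measured.

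The summed ratios of the glial marker lists were below 1, and the lowest was that of myelin genes. The pan-glial list had a ratio of 0.777 (0.696 to 0.866) and the satellite glia list 0.815 (0.772 to 0.861). The satellite sum was mostly Apoe, the apolipoprotein of satellite glia, with 1143 of 1343 UMIs and a ratio of 0.788 (0.743 to 0.836). By genes the list split, with 3 of 5 above 1, 2 below and a median ratio of 1.00. At least 3 of its markers were found in 41.5% of the cycling against 30.8% of the non-cycling glial nuclei. These shares were not thinned, at median depths of 2368 and 1960 UMIs. Apoe, 1 of the 5 markers, also had UMIs in 99.8% of the nuclei with 3 or 4 neuronal genes. Fabp7 stood at 791 against 789 CPM, a ratio of 1.00 (0.846 to 1.18), with the rule having read it in both classes. Foxd3, a neural crest factor of the pan-glial list, was at 117 against 69.4 CPM, a ratio of 1.68 (1.04 to 2.58). It was the only 1 of the 6 pan-glial genes above 1, and the other 5 were below. The 10 myelinating Schwann genes summed to 796 against 3030 CPM, a ratio of 0.263 (0.222 to 0.308), and all 5 measured members were at least 2-fold lower. Mbp and Pmp22, which encode proteins of compact myelin, had ratios of 0.459 (0.329 to 0.625) and 0.379 (0.255 to 0.542). In a pooled class, fewer myelinating nuclei and less RNA per nucleus cannot be told apart.

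Among immature and crest-derived glial genes, 0 of 12 measured were at least 2-fold higher and 1 was lower, beside 11.8% and 5.9% of all genes. The non-cycling class alone would have measured all 12, and of all 5940 such genes 290 were higher. The lower gene of the 12 was Hes1, a Notch target, with 3 UMIs and a ratio of 0.310 (0.0635 to 0.914). The whole list of 17 had a summed ratio of 0.866 (0.778 to 0.961), with 4 of the 12 measured genes above 1 and 8 below. Sox2, a factor of immature glia, was at 175 against 104 CPM, a ratio of 1.69 (1.15 to 2.40). Sox6 was at 1.37 (1.13 to 1.64) and Sox5 at 0.571 (0.403 to 0.786). Mitogen receptors held a summed ratio of 0.958 (0.893 to 1.03), with 0 of 13 measured genes higher and 1 lower. Erbb4 and Erbb3, neuregulin receptors, were at 1.77 (1.37 to 2.25) and 0.798 (0.528 to 1.16). Lgr5, an R-spondin receptor, was at 1.06 (0.832 to 1.32). The lower one was Pdgfrb, at 0.364 (0.157 to 0.722). Immediate early and heat shock genes, which rise with dissociation, had a ratio of 0.825 (0.703 to 0.962), with 0 of 6 measured genes past 2-fold.

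Semaphorin receptors and co-receptors had a summed ratio of 1.40 (1.19 to 1.62). Of 10 measured genes 2 were higher and 1 lower, beside 11.8% and 5.9% of all genes. The non-cycling class alone would have measured 8 of the 10, including the 2 higher ones, and of all 5940 such genes 290 were higher. Of the 10, 5 had ratios above 1 and 5 below, with a median of 1.13. Nrcam, an adhesion molecule of the L1 family, was at 356 against 130 CPM, 2.72-fold (2.09 to 3.50), in 25 cycling nuclei. Plxna2 was at 127 against 42.6 CPM, 2.99-fold (1.88 to 4.56), in 11 nuclei, but its ratio was 1.12 with at least 3 rule genes required, 1.59 with both Fabp7 and Sox10 required and 1.52 with lineage from marker lists. Nrp1 and Nrp2 had ratios of 1.26 (0.804 to 1.90) and 0.995 (0.646 to 1.47). Sema3b had 10 UMIs in 9 cycling glial nuclei, 53.1 against 66.5 CPM, a ratio of 0.798 (0.380 to 1.48), and the class 3 semaphorins together had one of 0.646 (0.468 to 0.870).

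Over all measured genes, intervals lay above 2 for 335 genes, of which 97 were in the cell cycle lists, and below 0.5 for 16, of which 0 were. The 10 named from the top were the 5 with 0 UMIs in non-cycling nuclei, which have no finite ratio and were placed first (Bub1, Depdc1b, Esco2, Pbk and Pimreg), and the 5 with the largest finite ratios, Cdca2, Kif18b, Rtkn2, Ttk and Cdc25c. Pimreg and Rtkn2 were in no list; Pimreg had 10 UMIs, at least 68.7-fold higher by the exact interval, and Rtkn2 17 UMIs against 1, a ratio of 521 (81.7 to 21784). The 10 with the smallest ratios began with Pid1 (485 UMIs in non-cycling nuclei), F13a1 (404), a transglutaminase of macrophages, and A330069K06Rik (363). All 3 had 0 UMIs in cycling glial nuclei, 5.27-, 4.39- and 3.95-fold lower against a floor of 3 counts, with exact upper limits of the ratio of 0.234, 0.281 and 0.313, but with lineage from marker lists Pid1 had a ratio of 1.85. Tmeff2, Slc4a10 and Emid1 had 1 UMI each, ratios of 0.0741 (0.00187 to 0.415), 0.0750 (0.00189 to 0.420) and 0.0753 (0.00190 to 0.422). Col27a1, Gm29237, D130009I18Rik and Gfra1 followed with 2 or 3 UMIs. The macrophage marker Mrc1 was also at 0 UMIs in cycling against 248 in non-cycling glial nuclei, and the macrophage list summed to 31.8 against 124 CPM. The part of other cell types in these low ratios was not tested.

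Blood genes moved with the cycling glial class. The 4 globins had a ratio of 3.80 (3.12 to 4.59) and the 13 erythroid genes one of 7.84 (6.04 to 10.1). Without the 5 cycling and 16 non-cycling glial nuclei with at least 3 erythroid or B lineage genes these ratios were 0.554 (0.309 to 0.919) and 0.674 (0.246 to 1.49). Because the erythroid genes themselves chose nuclei to leave out, the fall of their ratio was set by that choice and is no test. The globins did not enter the choice. The cell cycle lists had an 18.8-fold ratio (18.0 to 19.6) without them.

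The same gene rule was read in the nerve libraries with a mitochondrial limit of 20% in place of 5%, and they hold cells rather than nuclei and differ in depth and Cell Ranger version, so the values stand side by side. Among barcodes past the filter, 2231 of the newborn nerve (22.5%) passed it, 3.89% of the P7 and 5.44% of the P14 nerve, and 0.765% and 0.696% of the P28 and P60 nerve, at median depths of 3463 to 7960.5 UMIs, and 1.97% in the ganglion at P14 at 2013.5 UMIs. With each barcode thinned to 1000 UMIs first, the shares were 11.2%, 1.74%, 3.06%, 0.321% and 0.214% in the nerve and 1.52% in the ganglion. The ganglion shared 10 to 19 barcode sequences with each nerve library, and the 114 members 0 to 2.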

How the data were processed

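Single-nucleus RNA of the ganglion and single-cell RNA of the nerve were read from the deposited matrices of raw UMI counts per gene and barcode. Per the file headers, these were made with Cell Ranger 7.1.0 (ganglion), 7.0.0 (nerve at P7) and 5.0.1 (the other nerve libraries). The submitters' processing notes name Seurat and the mm9 build. The setting for intronic reads is not given in the sources used here. Deposited values for the ganglion covered 5871 barcodes and 20845972 UMIs.

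Members, gene lists and comparisons were chosen with earlier results of these data known, and the erythroid, globin and B lineage lists and their thresholds after the data were seen, following an exploratory clustering that is not used. UMIs were summed over the nuclei of a class and divided by the class total (CPM). Intervals are exact: Poisson for levels, Clopper-Pearson for shares and conditional binomial for ratios, all at 95%. A gene was measured when the mean CPM of both classes corresponded to at least 5 UMIs in the cycling class. The genes named were the 10 with the largest and the 10 with the smallest ratio, the members of each list with the most UMIs, list members past 2-fold with an interval that excludes 1, and the markers; Atr, Pcna, Cdc6, Cdt1, Mcm2 to Mcm7, Ccnd1, Ccnd2, Cdkn1b, Erbb3 and Erbb4 were named after their values were seen. Nuclei were not filtered for doublets: Scrublet (scanpy 1.11.5) called 0 nuclei by its own threshold, which means that it did not work here, and removing the highest 8% of its scores is given as an alternative. How ties at that limit were treated was changed after a first run. Scripts were tested on simulated data (numpy 2.4.6, scipy 1.17.1). With 1 ganglion library no model was fitted.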

Additional observations from a re-analysis of the deposited data

How the results depend on the processing

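No paired analysis was possible because every group has 1 library, and the replicate numbers of the nerve libraries stand for ages; for the same reason no replicate could be left out. Of 54 values of the number of cycling nuclei, the glial share, the counts of genes past 2-fold and the library shares under an alternative, 36 stayed within 1.5 times or within the interval and 18 did not. At least 3 rule genes left 72 cycling nuclei. The glial share was 25.4% with both Fabp7 and Sox10 required, which gave 238 genes lower, and 42.1% with lineage from marker lists. Thinning each nucleus to 1000 UMIs, which leaves fewer genes measured, gave 336 genes higher, 108 lower and 48 cell cycle genes higher. A level filter of 10 UMIs gave 374, 144 and 62, and no level filter gave 3291 and 12893, with 20.3% of the genes past 2-fold higher instead of 66.6%. Scaling by the median of ratios, a shift of 0.066 on the log2 scale, gave 712 genes higher and 472 lower. Thinned shares of the rule were 11.2%, 1.74%, 3.06%, 0.321% and 0.214% in the nerve from P0 to P60 and 1.52% in the ganglion. Of 1308 ratios of single genes under 10 settings, 1248 stayed within their interval, 59 did not, and 1 changed direction: Pid1, at 1.85 with lineage from marker lists. The causes were not tested. Depth limits genes with few UMIs in the 65 cycling glial nuclei.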

Other observations

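Outside the rule, 20 of the 2601 glial nuclei without any of the 4 rule genes had at least 10 of the 132 other cell cycle genes, a threshold chosen after the data were seen. In these 20 nuclei the replication list stood at 2253 CPM (1908 to 2643) and the 3 mitotic lists at 2074 CPM (1744 to 2449). Replication UMIs exceeded mitotic UMIs in 12 of the 20, against 3 of the 65 cycling glial nuclei. Over all 2601 the lists stood at 278 and 365 CPM.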
